A study of Mus musculus with 6 samples.

Results

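The genes described here are 39 genes of enteric neurons and glia: markers of nerve and glial cells, receptors that guide their progenitors, and genes for transmitters, neuropeptides and their release. They were chosen by name, and each was read from the transcript cluster (a probe set that stands for 1 gene) whose only platform symbol is that gene, taking the cluster with the highest mean where a gene has several. Of the 39 genes 38 were measured, out of 22180 genes with such a cluster; the only cluster of Phox2a also carries another gene's symbol, so Phox2a has no value here.

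Affymetrix Mouse Gene 2.0 ST arrays, 1 for each mouse, were used to read colon RNA of 6 male mice of the BALB/c strain. The groups were 4 Mthfd1S+/+ mice, called wild type (WT) here, and 2 heterozygous Mthfd1S+/- mice, which are deficient in the synthetase activity of the folate enzyme MTHFD1. All 6 mice, backcrossed for at least 10 generations, had the same treatment: azoxymethane (AOM, a carcinogen of the colon) at 6 mg/kg into the peritoneum, then dextran sulfate sodium (DSS, which injures the gut lining) at 3% for 4 days in each of 2 cycles, 1 and 4 weeks later. They were killed at week 13. The labels give an age of 7 months, and their protocol 3 months at injection. The tissue is labelled as normal mucosa beside a tumour, and no untreated mouse was analysed here.

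The gut wall holds its own nervous system, a network of neurons and glia that lies in ganglia between the muscle layers and under the mucosa and sends fibres into both. Its cells come from the neural crest and depend on signalling through the receptor RET and its GFRA partners and through the endothelin receptor EDNRB. Mature neurons use acetylcholine, nitric oxide and peptides such as VIP to move the bowel, control secretion and regulate blood flow, and glia surround them. Mucosa free of muscle holds nerve fibres and glia but few nerve cell bodies.

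Array medians ran from 5.485 to 5.532 on the log2 scale, so no array stood apart in overall level. The targeted gene Mthfd1 read 7.64, 7.63, 7.496 and 7.75 in WT mice 1 to 4, against 7.96 and 7.63 in Mthfd1S+/- mice 1 and 2, so its cluster did not separate the genotypes. Which part of the transcript the allele alters is not given in the sources used here, so this reading does not check the labels. The tissue label can be set against marker genes. Epithelial genes read high, with the goblet cell mucin Muc2 at 13.38 to 13.51 over the 6 mice. Smooth muscle genes did too: the smooth muscle myosin Myh11 read 11.43 to 12.02 and the muscle actin Acta2 12.46 to 12.84. Transcripts of smooth muscle genes were therefore present in every sample labelled as mucosa. Which layer or cells of the bowel wall they came from was not tested. Olfactory and vomeronasal receptor genes, which the colon is taken not to use, served as a background: their 1405 clusters had a median of 3.02 and a 95th percentile of 5.24. Of the measured neuron and glia genes 35 lay above that percentile, and S100b, Elavl4 and Nefm lay within the background range; of all tested clusters 35.9% lay below it.

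The comparison between genotypes asks whether nerve and glial transcripts of the colon differ with the synthetase deficiency. Of the 38 genes 34 read higher in Mthfd1S+/- mice and 4 lower (Elavl3, Gap43, Chat and Npy), beside 54% of all tested clusters that read higher. The median log2 difference, Mthfd1S+/- minus WT, was 0.31, against 0.01 over all tested clusters. None of the 38 passed the test: in limma's moderated fit over 23521 clusters their adjusted p ran from 0.84 to 0.99. The share of all clusters at an adjusted p under 0.05 was 0%, with 1363 clusters at an unadjusted p under 0.05 and 0 adjusted calls with unmoderated least squares as well. In bulk tissue, more cells of a type and more RNA per cell cannot be told apart.

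Below the adjusted threshold, 10 of the 38 genes stood at an unadjusted p under 0.05, all of them higher in Mthfd1S+/- mice: Scgn, Elmod1, Fam155a, Dbh, Gfra2, Chrna3, Cartpt, Gfap, Prph and Nos1. The background for this count is 3.36% of all clusters in that direction and 2.44% in the other, where 0 of the 38 stood. Both Mthfd1S+/- mice lay above all 4 WT mice for 9 genes, against 7.96% of all clusters, and below them for 0 genes, against 6.04%. At least 1.5-fold higher were 4 genes, Scgn, Elmod1, Fam155a and Dbh, against 0.17% of all clusters. The count at an unadjusted p under 0.05 moved with single mice. It was 5 without WT mouse 1, 6 without WT mouse 2, 10 without WT mouse 3 and 17 without WT mouse 4. Without Mthfd1S+/- mouse 2 the median difference of the 38 genes was 0.19, and without Mthfd1S+/- mouse 1 it was 0.41. No share of all clusters was taken with a mouse left out. Earlier results of these data had already named 7 of the 10, so they are no independent support. Those 7 include all 4 genes at least 1.5-fold higher. Without the 7, the other 31 genes had a median of 0.24, with 27 higher and 3 at an unadjusted p under 0.05. Of these 31 genes 0 were at least 1.5-fold higher, and both Mthfd1S+/- mice lay above all WT mice for 3.

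**Figure D1:**
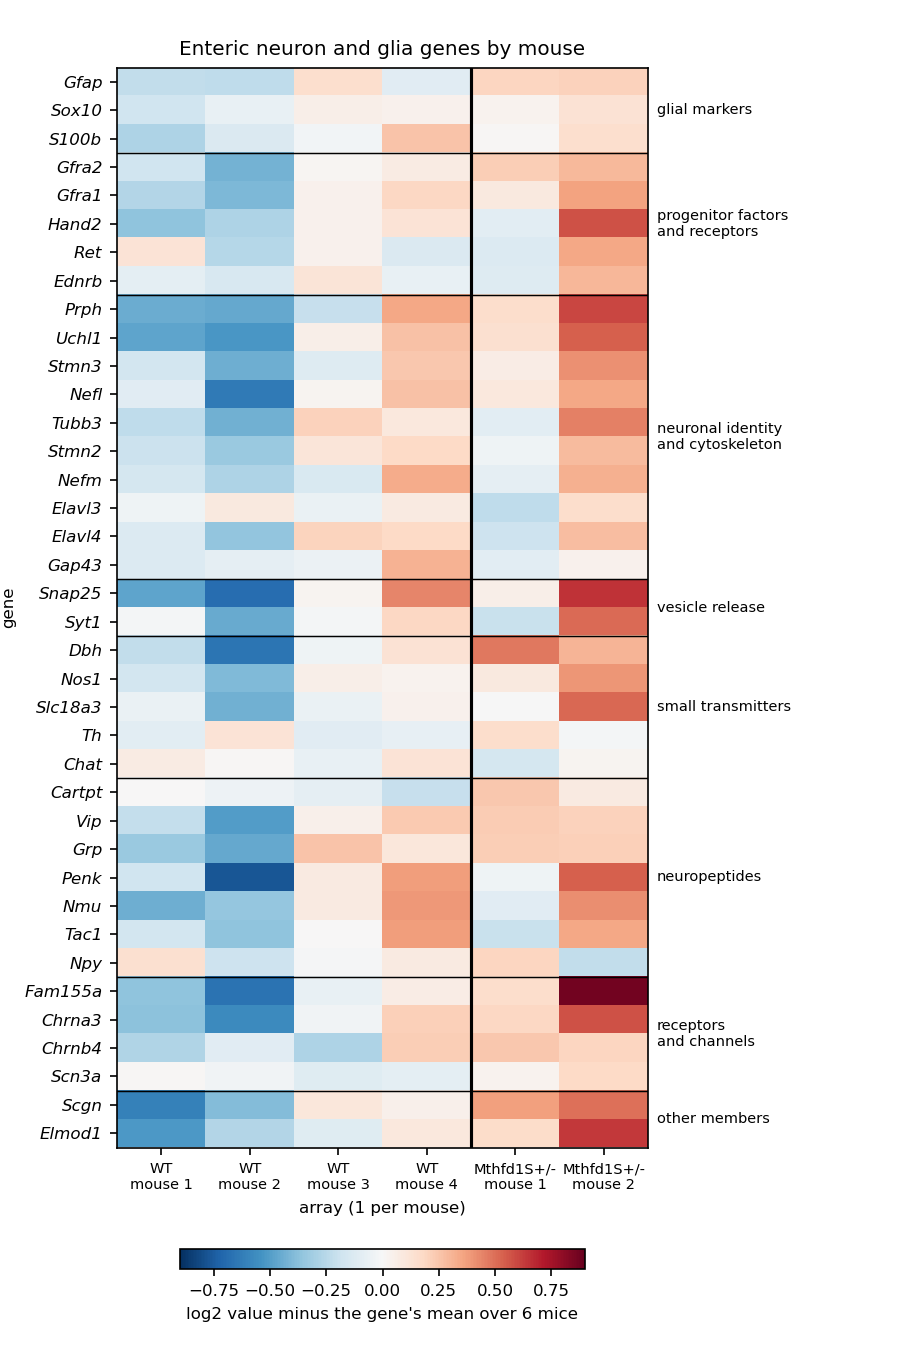
Each cell is the log2 value of 1 gene (rows, grouped by role) in 1 mouse (columns, WT left of the line and Mthfd1S+/- right of it), minus that gene's mean over the 6 mice; red is above the mean and blue below it. The column of Mthfd1S+/- mouse 2 holds the highest value of 26 genes and that of WT mouse 2 the lowest of 24, and WT mouse 4 is red for many genes too.

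The mice did not fall into groups of high and low by genotype alone. Taking each gene relative to its own mean over the 6 mice, the 38 genes averaged -0.20, -0.33, 0.00 and 0.14 in WT mice 1 to 4; Mthfd1S+/- mice 1 and 2 averaged 0.05 and 0.33. Mthfd1S+/- mouse 1 thus stood within the WT range, below WT mouse 4, and Mthfd1S+/- mouse 2 stood above all others. Gene by gene, Mthfd1S+/- mouse 2 exceeded mouse 1 for 31 genes, and WT mouse 4 exceeded Mthfd1S+/- mouse 1 for 24. Mthfd1S+/- mouse 2 held the highest value for 26 of the 38 genes, beside 19.3% of all clusters, and WT mouse 2 the lowest for 24, beside 18.2%. The median difference was 0.19 without Mthfd1S+/- mouse 2, with 27 genes higher, and 0.18 without WT mouse 2, with 33 higher.

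Among the glial genes, Gfap, the intermediate filament of astrocytes and enteric glia, read 5.69, 5.68, 6.06 and 5.80 in WT mice 1 to 4, against 6.10 and 6.11 in Mthfd1S+/- mice. WT mouse 3 lay close to both Mthfd1S+/- mice. The log2 difference was 0.30 ± 0.12 (SE), and 0.30 with Mthfd1S+/- mouse 2 left out. Sox10, the transcription factor of crest-derived progenitors and glia, differed by 0.12 ± 0.10, and S100b, a calcium-binding protein of glia, by 0.13 ± 0.14. Both intervals included 0, and the S100b reading lay within the background range.

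Among the receptors through which neural crest cells respond to growth factors of the gut, Gfra2 was the one with groups apart. Gfra2, the receptor subunit for neurturin, which serves cholinergic neurons, read 7.67, 7.42, 7.86 and 7.92 in WT mice, against 8.06 and 8.14 in Mthfd1S+/- mice. The groups did not overlap, and the difference was 0.38 ± 0.14, a 1.30-fold change, or 0.35 without Mthfd1S+/- mouse 2. Gfra1, the subunit for GDNF, differed by 0.34 ± 0.17, with Mthfd1S+/- mouse 1 at 6.22 below WT mouse 4 at 6.31. A second cluster of Gfra1 had a mean of 3.99, within the background range, and its -0.08 ± 0.14 gives no direction.

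Ret, the signalling receptor that both GFRA subunits share, differed by only 0.17 ± 0.15. WT mice 1 to 4 read 7.17, 6.79, 7.09 and 6.91, Mthfd1S+/- mouse 1 read 6.93 and mouse 2 read 7.39. The first Mthfd1S+/- mouse therefore sat in the lower part of the WT values, and without the second the Ret difference was -0.06. Ednrb, the endothelin receptor needed for colonisation of the distal bowel, showed the same layout: 7.59, 7.53, 7.79 and 7.61 in WT mice, 7.56 and 7.97 in Mthfd1S+/- mice, a difference of 0.14 ± 0.13 that was -0.07 without mouse 2. Hand2, a transcription factor of differentiating enteric neurons, differed by 0.36 ± 0.20 and by 0.03 without mouse 2.

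The genes of neuronal identity and cytoskeleton were the largest group, and 8 of 10 read higher, with a median of 0.22. Prph encodes peripherin, the intermediate filament of peripheral neurons. It read 5.69, 5.68, 5.93 and 6.49 in WT mice, against 6.30 and 6.74 in Mthfd1S+/- mice. The difference was 0.57 ± 0.23, but WT mouse 4 lay above Mthfd1S+/- mouse 1, so the groups overlapped; it was 0.35 without Mthfd1S+/- mouse 2. Uchl1, the ubiquitin hydrolase PGP9.5 used to stain enteric nerves, differed by 0.51 ± 0.23, with an interval from -0.02 to 1.04. A second Uchl1 cluster gave -0.15 ± 0.13, so the sign for this gene rests on the choice of cluster.

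Stmn2, a microtubule regulator of growing axons, read 7.45, 7.30, 7.74 and 7.82 in WT mice, against 7.60 and 7.92 in Mthfd1S+/- mice. Mthfd1S+/- mouse 1 lay among the WT mice, and the difference of 0.18 ± 0.16 shrank to 0.02 without mouse 2. Its relative Stmn3 differed by 0.36 ± 0.18, and the neuronal tubulin Tubb3 by 0.27 ± 0.21. The neurofilament genes Nefl and Nefm, which lie next to each other in the genome with 0 coding genes between them, differed by 0.34 ± 0.22 and 0.18 ± 0.18. Elavl3 and Elavl4, RNA-binding proteins of the HuC and HuD antigens, and Gap43, a growth cone protein, had differences near 0, at -0.05 ± 0.12, 0.07 ± 0.19 and -0.04 ± 0.13. Elavl4 and Nefm lay within the background range, and differences between genes were not tested.

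Snap25, part of the SNARE complex that fuses vesicles with the membrane, had the widest spread of the 38 genes, with an SE of 0.30. It read 7.88, 7.66, 8.37 and 8.79 in WT mice, against 8.40 and 8.999 in Mthfd1S+/- mice. The WT mice alone spanned 1.13 log2 units, more than the difference between genotypes of 0.52. Syt1, the calcium sensor of release, differed by 0.23 ± 0.22, and by -0.12 without Mthfd1S+/- mouse 2.

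Of the 5 genes for small transmitters 4 read higher, with a median of 0.36. Dbh makes noradrenaline from dopamine and in the gut marks mainly the fibres of sympathetic neurons whose cell bodies lie outside the bowel. It read 6.29, 5.85, 6.47 and 6.64 in WT mice, against 6.98 and 6.81 in Mthfd1S+/- mice. The groups were apart, Mthfd1S+/- mouse 1 rather than mouse 2 was highest, and the difference of 0.59 ± 0.20, or 1.504-fold, was 0.67 without mouse 2. Th, which makes the precursor of dopamine in the same pathway, read 5.22, 5.44, 5.21 and 5.25 in WT mice, against 5.48 and 5.30 in Mthfd1S+/- mice, a difference of 0.11 ± 0.10. Mouse 1 of the Mthfd1S+/- pair was again the higher one, but WT mouse 2 lay above its partner. For Th, WT mice 1 and 3 lay below 5.24, the background's 95th percentile.

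Nos1, the neuronal nitric oxide synthase of inhibitory motor neurons, read 5.90, 5.67, 6.12 and 6.11 in WT mice, against 6.16 and 6.47 in Mthfd1S+/- mice. The groups did not overlap, though Mthfd1S+/- mouse 1 exceeded WT mouse 3 by little, and the difference of 0.36 ± 0.15 was 0.21 without mouse 2. The cholinergic pair gave opposite signs. Slc18a3, which loads acetylcholine into vesicles and lies inside the Chat gene, differed by 0.38 ± 0.17, and Chat, which makes acetylcholine, by -0.10 ± 0.10. The intervals of both included 0, from -0.01 to 0.78 and from -0.32 to 0.12.

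Of the 7 neuropeptide genes 6 read higher, with a median of 0.24. Cartpt, the precursor of the CART peptide of myenteric neurons, had another order over the mice than most of the 38 genes. It read 5.72, 5.67, 5.64 and 5.51 in WT mice, against 5.96 and 5.80 in Mthfd1S+/- mice, so WT mouse 4, high for most genes, was lowest here. The difference of 0.24 ± 0.10 exceeded the range of the WT mice, as it did for Fam155a and Scn3a alone among the 38. No share of all clusters was taken for this criterion. The Cartpt difference also held its sign with either Mthfd1S+/- mouse left out. It was 0.16 without Mthfd1S+/- mouse 1 and 0.32 without Mthfd1S+/- mouse 2.

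Vip, the relaxant and secretory peptide of inhibitory motor and secretomotor neurons, read 7.88, 7.60, 8.15 and 8.33 in WT mice, against 8.32 and 8.31 in Mthfd1S+/- mice. Both Mthfd1S+/- mice read level with the highest WT mouse, and the difference was 0.33 ± 0.18. Grp, the bombesin-like peptide, gave 0.33 ± 0.19. Penk, the enkephalin precursor, gave 0.37 ± 0.29, Nmu, neuromedin U, 0.24 ± 0.24, and Tac1, the substance P precursor, 0.11 ± 0.21. For these last genes Mthfd1S+/- mouse 1 read 7.10, 5.95 and 6.24, below WT mouse 4 at 7.51, 6.44 and 6.81. Npy, made by sympathetic and some enteric neurons, gave -0.02 ± 0.14, and its Mthfd1S+/- mice held both the highest value, 6.46, and the lowest, 6.04.

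Promoter sequences from RefSeq (GRCm38.p6) were found for 26 of the 38 genes, in 30 promoters of 250 bases before and 50 after the start. The 250 bases before the start are shown for Cartpt (chr13:99900684-99900933, minus strand) and Th (chr7:142899996-142900245, minus strand), because these promoters hold the cyclic AMP response element TGACGTCA, printed in capitals. This motif was picked after 11 had been searched on both strands and their matches seen. Dbh, Vip, Npy and Chrnb4, which like Cartpt and Th read higher in Mthfd1S+/- mouse 1 than in mouse 2, have promoters without it. The promoters of Dbh and Vip do hold its shorter form TGACG. Grp also read higher in Mthfd1S+/- mouse 1, at 7.013 against 7.005, and is not among the genes found with the full element.
Cartpt: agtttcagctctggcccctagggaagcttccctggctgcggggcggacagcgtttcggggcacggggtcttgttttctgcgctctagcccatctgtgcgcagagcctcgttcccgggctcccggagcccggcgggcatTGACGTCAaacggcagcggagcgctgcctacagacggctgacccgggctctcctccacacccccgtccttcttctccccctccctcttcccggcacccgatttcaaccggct
Th: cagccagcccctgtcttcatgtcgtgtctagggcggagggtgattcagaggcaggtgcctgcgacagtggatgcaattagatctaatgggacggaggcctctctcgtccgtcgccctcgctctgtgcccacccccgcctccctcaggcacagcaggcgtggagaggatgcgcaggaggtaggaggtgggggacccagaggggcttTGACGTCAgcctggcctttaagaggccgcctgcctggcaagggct

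The element lies 112 to 105 bases before the start in Cartpt and 45 to 38 before it in Th. It was present in 2 of the 30 promoters (6.67%) and in 1.79% of 32851 promoters of all genes. Its shorter form TGACG, which the full element contains, was present in 14 of the 30 (46.7%), against 20.8% of all promoters, and TGACGTNA in the same 2 genes, against 2.93%. The repressor element RE1 and its left arm TTCAGCACC were in 0 of the 30, against 0.0517% and 0.371%, and its right arm GCTGTCC in 4, against 6.56%. A paired homeodomain motif was in 0, against 0.487%, and the Sox motif ACAAAG in 2, against 18.7%. The E-box CATCTG was in 8 of the 30, against 17.2%. The E-box CACCTG was in 7, against 20.2%, and the E-box CAGCTG also in 7, against 16.3%. Promoters differ in base composition, several of the 30 belong to 1 gene, and a match describes letters only.

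Fam155a encodes an accessory protein of the sodium leak channel NALCN, which sets the resting potential of neurons. It had the largest difference of the 38 genes, 0.77 ± 0.24 or 1.70-fold. WT mice read 5.51, 5.21, 5.80 and 5.94, and Mthfd1S+/- mice 6.03 and 6.74. The groups did not overlap, but Mthfd1S+/- mouse 1 lay just above WT mouse 4. The difference was 0.42 without Mthfd1S+/- mouse 2 and 1.12 without Mthfd1S+/- mouse 1. WT mouse 2 lay below 5.24, the background's 95th percentile.

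Chrna3 and Chrnb4 encode the alpha3 and beta4 subunits of the ganglionic nicotinic receptor, through which enteric neurons receive fast synaptic input, and are neighbours in the genome with 0 coding genes between them. Chrna3 read 6.57, 6.37, 6.91 and 7.16 in WT mice, against 7.13 and 7.52 in Mthfd1S+/- mice, a difference of 0.57 ± 0.21 with overlapping groups, or 0.37 without Mthfd1S+/- mouse 2. Chrnb4 read 8.01, 8.19, 8.01 and 8.51 in WT mice, against 8.53 and 8.48 in Mthfd1S+/- mice. Its 2 Mthfd1S+/- mice stood level with WT mouse 4, and the difference was 0.32 ± 0.14. Scn3a, a neuronal sodium channel, had a difference of 0.16 ± 0.09 with groups apart, its WT mice reading 5.89, 5.84, 5.77 and 5.79 and its Mthfd1S+/- mice 5.91 and 6.06.

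Scgn and Elmod1 are less specific to enteric nerves. Scgn encodes secretagogin, a calcium sensor of neuroendocrine cells and neurons. It read 4.99, 5.21, 5.70 and 5.64 in WT mice, against 5.97 and 6.09 in Mthfd1S+/- mice, and the difference of 0.64 ± 0.20, or 1.56-fold, was 0.58 without mouse 2. Both Mthfd1S+/- mice stood clear of WT mice 3 and 4, while WT mice 1 and 2 lay below 5.24, the background's 95th percentile. Elmod1, a regulator of ARF-family GTPases, read 5.68, 5.94, 6.09 and 6.30 in WT mice, against 6.37 and 6.84 in Mthfd1S+/- mice. Its difference was 0.60 ± 0.18, or 1.52-fold, and 0.36 without mouse 2, as mouse 1 lay just above WT mouse 4.

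**Figure D2:**
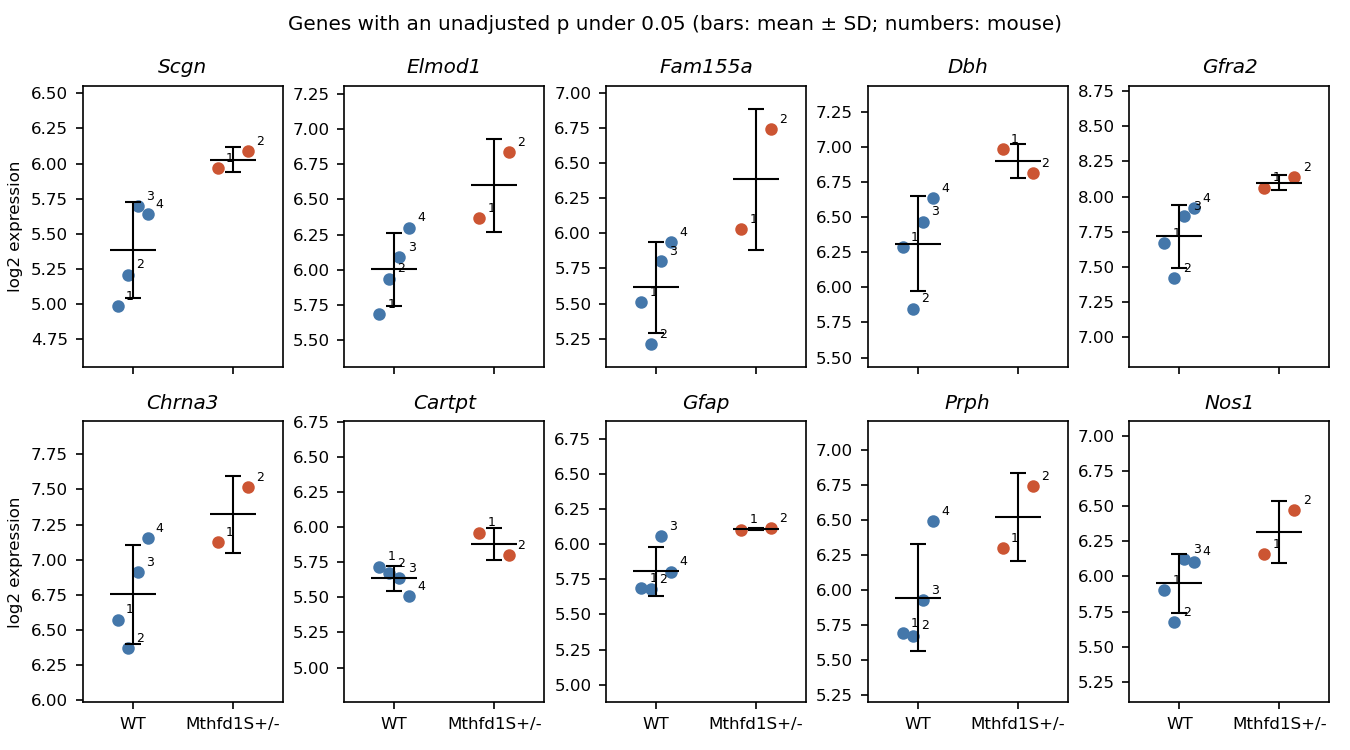
Log2 expression (vertical axes, each spanning 2 log2 units) in WT (blue, 4 mice) and Mthfd1S+/- (orange, 2 mice) colon for the 10 genes at an unadjusted p under 0.05, with the mouse number beside each point and the group mean ± SD as bars. The groups are apart for all but Chrna3 and Prph, where WT mouse 4 lies above Mthfd1S+/- mouse 1; none of the 10 passed the adjusted threshold.

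With 4 mice against 2, the exact two-sided permutation test has 15 arrangements and cannot give a p below 0.0667, so no single gene could reach 0.05 by it. The SE of the log2 difference ran from 0.09 to 0.30 among the 38 genes, and the 95% interval included 0 for 28 of them. The interval of each of the 4 genes that read lower included 0, as for Npy, from -0.34 to 0.29.

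**Figure D3:**
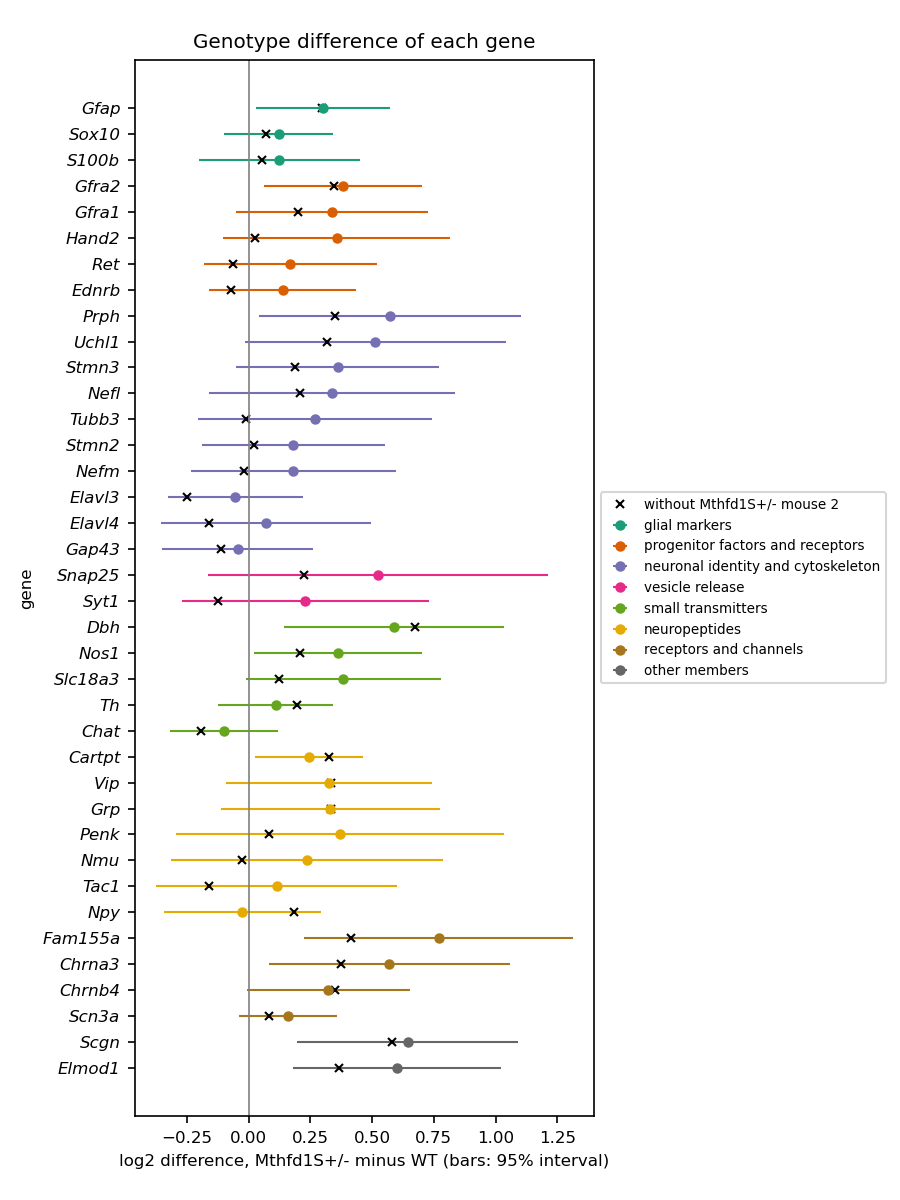
Log2 difference of each gene, Mthfd1S+/- minus WT (horizontal axis; 4 and 2 mice), with its 95% interval from limma as a bar and coloured by role; crosses are the same difference without Mthfd1S+/- mouse 2. Of the 38 intervals 28 include 0, and for 31 genes the cross lies left of the point, while Dbh, Th, Cartpt and Npy are among those where it lies to the right.

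A wider list of 73 other neuron and glia genes, of which 63 were measured, gave a smaller median of 0.11, with 49 higher and 14 lower; 12 of the 63 lay within the background range. At an unadjusted p under 0.05 stood 8 higher and 1 lower, beside 3.36% and 2.44% of all clusters, and 0 passed the adjusted threshold. The vesicle protein gene Sv2a read 5.02, 5.18, 5.13 and 5.22 in WT mice, against 5.41 and 5.61 in Mthfd1S+/- mice, a difference of 0.37 ± 0.10, with all 4 WT mice below the 95th percentile of the background, 5.24, so its WT level has no firm value. Slc18a2, the vesicular monoamine transporter, gave 0.37 ± 0.10, and Ngfr, the p75 neurotrophin receptor of nerves and glia, 0.42 ± 0.11. Syn2, a synapsin, gave 0.34 ± 0.11, Ina, the internexin filament, 0.48 ± 0.17, and Kif1a, an axonal motor, 0.35 ± 0.14. Groups were apart for each of these genes, and for 13 of the 63 in all on the higher side and 1 on the lower, beside 7.96% and 6.04% of all clusters. The 1 gene on the lower side was Vamp2, with a difference of -0.20 ± 0.09. It read 8.64, 8.64, 8.68 and 8.78 in WT mice, against 8.44 and 8.53 in Mthfd1S+/- mice. The count of 9 was 1 without Mthfd1S+/- mouse 2 and 16 without mouse 1, and 14 without WT mouse 4.

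Markers of other cells of the bowel wall ran alongside these genes. All 17 measured of 18 smooth muscle genes read higher in Mthfd1S+/- mice, with a median of 0.25, and 0 of them lay within the background range. Relative to their own means they averaged -0.18, -0.28, -0.04 and 0.12 in WT mice and -0.06 and 0.44 in Mthfd1S+/- mice, which is the order of the neuron and glia genes apart from Mthfd1S+/- mouse 1 and WT mouse 3, close to each other in both. Mthfd1S+/- mouse 2 was highest for all 17, and without that mouse the smooth muscle median was 0.02. The calsequestrin gene Casq2 gave 0.59 ± 0.23 and the creatine kinase gene Ckb 0.40 ± 0.14.

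When each mouse's mean smooth muscle level entered the fit as a covariate, the median difference of the 38 neuron and glia genes was 0.06. Of the 38 genes 22 read higher, and 3 stood at an unadjusted p under 0.05. No share of all clusters was taken with the covariate, and the 54% that read higher is from the main fit. With the covariate, differences were 0.42 for Scgn, 0.42 for Dbh, 0.35 for Cartpt, 0.32 for Fam155a, 0.30 for Elmod1 and 0.23 for Gfap. They were 0.21 for Gfra2, 0.20 for Chrna3, 0.18 for Prph and 0.13 for Nos1, and -0.02 for Snap25. The covariate is itself measured on the same arrays and differs between the genotypes, so the fit gives a size under that adjustment and not the part of muscle in the result.

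Endocrine cells of the epithelium share vesicle and peptide genes with neurons. All 20 measured of 22 enteroendocrine genes read higher, with a median of 0.22, and averaged -0.22, -0.17, -0.01 and 0.05 in WT mice, against 0.05 and 0.31 in Mthfd1S+/- mice; 4 lay within the background range. The peptide hormone Sst, which enteric neurons also make, gave 0.67 ± 0.24 and the peptide-processing gene Cpe, shared with neurons, 0.60 ± 0.21. Of 16 fibroblast genes 14 read higher, with a median of 0.16 and averages of -0.29 to 0.10 in WT mice, against 0.03 and 0.25 in Mthfd1S+/- mice. All 6 mesothelial genes read higher, with a median of 0.22 and averages of -0.13 to -0.03 in WT mice, against 0.03 and 0.30 in Mthfd1S+/- mice; 2 lay within the background range. For the 4 genes of interstitial cells of Cajal, the pacemakers beside the plexus, the median was 0.10, with 2 higher and averages of -0.17 to 0.14 in WT mice and -0.08 and 0.22 in Mthfd1S+/- mice. Epithelial genes read the other way, with 3 of 16 higher, a median of -0.06, and averages of 0.00 to 0.04 in WT mice and -0.01 and -0.08 in Mthfd1S+/- mice. The part of endocrine, fibroblast, mesothelial and epithelial RNA in the differences of the neuron and glia genes was not tested.

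**Figure D4:**
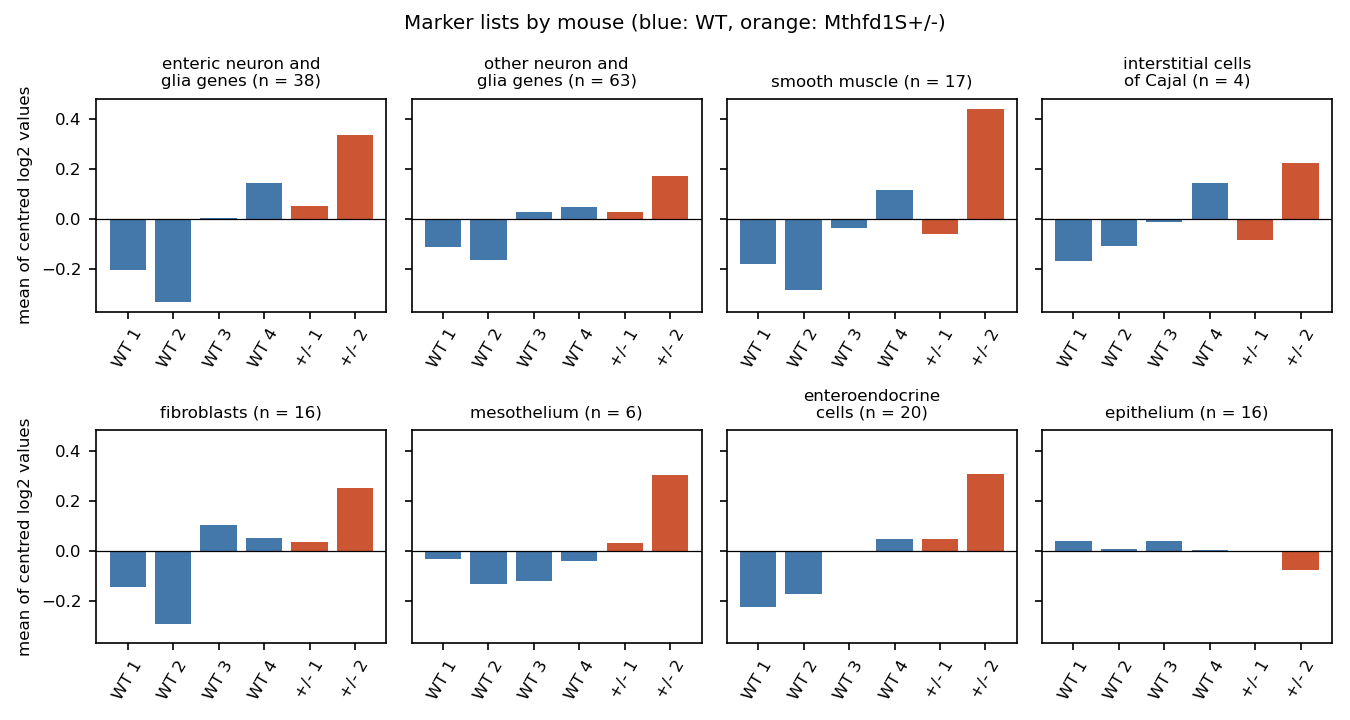
Mean over each list of log2 values centred on each gene's own mean over 6 mice (vertical axis, shared), 1 bar per mouse, with the number of genes in each title. Mthfd1S+/- mouse 2 has the highest bar in every panel but the epithelium, where it has the lowest, and WT mouse 1 or 2 has the lowest bar in all panels other than epithelium.

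Mouse identifiers in the labels begin with A or B, a letter whose meaning is not stated. Within letter A, with 1 mouse of each genotype, the median difference of the 38 genes was 0.25, with 31 higher; within letter B, with 3 WT mice and 1 Mthfd1S+/- mouse, it was 0.39, with 36 higher. With the letter as a covariate the median was 0.35.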

How the data were processed

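The authors deposited log2 values for every transcript cluster and array, and the submitters' processing notes name Affymetrix Expression Console. The version of that tool, the genome build, the background correction and the summarisation algorithm are not given in the sources used. All 6 columns were used. Of 41345 clusters, 23521 had exactly 1 platform symbol and were tested, 1814 had several and 16010 none. Precision is limited by the number of arrays, with a median SE of 0.106 for a log2 difference.

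The 2 genotypes were fitted in R 4.3.3 by limma 3.58.1 (lmFit, then eBayes; two-sided; residual degrees of freedom 4, prior 4.35), with Benjamini-Hochberg adjustment over all tested clusters and a threshold of 0.05. Fold values are powers of 2 of the log2 difference. The fit was tested on simulated data.

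The genes and marker lists were chosen with earlier results of these data known. By the naming rule, values in every mouse are given for genes at an unadjusted p under 0.05 or at least 1.5-fold apart and for the gene with the highest mean in each role; Ret, Ednrb, Th and Scn3a were added after their values were seen. Of each other list up to 6 genes with the smallest p and 2 with the highest mean could be named. Vamp2 of the wider list was named outside this rule, as its only gene with groups apart on the lower side. Alternatives were array centring, quantile normalization, a filter on the lowest 25% of clusters, all clusters, an intensity trend, unmoderated least squares, the replicate block, a covariate (identifier letter or smooth muscle mean), the mean of a gene's clusters, and each mouse left out. The RefSeq table of GRCm38.p6 held all 38 genes and served for names and neighbours.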

Additional observations from a re-analysis of the deposited data

Results flagged for a closer look

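In 2 genes a single WT mouse stood apart from the other 3 WT mice. Gap43 read 5.69 in WT mouse 4, with the others at 5.25 to 5.32. Th read 5.44 in WT mouse 2, with the others at 5.21 to 5.25. Chance alone sets a mouse apart in this way in about 1 in 20 groups, and 38 genes were looked at.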

How the results depend on the processing

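Under all 16 alternatives 0 of the 38 genes passed the adjusted threshold (lowest adjusted p 0.107). Of 608 values of single genes 32 reversed, and 22 genes never reversed. The filter, all clusters, the intensity trend and unmoderated least squares keep each gene's difference, so under them no value could reverse. The median difference stayed above 0 throughout and was 0.51 with the replicate block, but 0.061 with the smooth muscle covariate. WT mice 3 and 4 have no Mthfd1S+/- partner of the same number. Under the block the genotype difference therefore rests on WT mice 1 and 2 alone. These had the lowest averages over the 38 genes, -0.20 and -0.33. The 10 genes at an unadjusted p under 0.05 were 1 with unmoderated least squares, 24 with the replicate block and 3 with the muscle covariate, and 2 to 17 with a mouse left out. The 9 genes with groups apart were 9 to 29 with a mouse left out. Groups that are apart stay apart when a mouse is removed, so this count could not fall below 9. It therefore does not test how far the 9 depend on single mice, and no share of all clusters was taken beside it. The 9 wider genes were 5 with all clusters, 5 with least squares, 20 with the block and 5 with the muscle covariate, and 1 to 16 with a mouse left out. Whether replicate numbers shared by the groups mark a pairing cannot be told from these arrays. Deviations correlated at 0.117 for number 1 and -0.04 for number 2. Those of the 2 Mthfd1S+/- mice mirror each other, so the correlations cannot decide it.

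Reversed with the muscle covariate were S100b (-0.055), Hand2 (-0.0089), Ret (-0.0020), Ednrb (-0.036), Tubb3 (-0.091), Stmn2 (-0.088), Nefm (-0.12), Elavl4 (-0.25), Snap25 (-0.021), Syt1 (-0.17), Penk (-0.14), Nmu (-0.19), Tac1 (-0.28) and Npy (0.061). With the block Gap43 was 0.074 and Npy 0.0041, and Npy was 0.0024 with centring and 0.0063 with quantile normalization. With a mouse left out, ranges that cross 0 were -0.064 to 0.40 for Ret, -0.070 to 0.34 for Ednrb, -0.0086 to 0.54 for Tubb3, -0.020 to 0.38 for Nefm, -0.25 to 0.14 for Elavl3, -0.16 to 0.30 for Elavl4, -0.11 to 0.056 for Gap43, -0.12 to 0.58 for Syt1, -0.025 to 0.50 for Nmu, -0.16 to 0.39 for Tac1 and -0.23 to 0.18 for Npy; the cause was not tested. With 2 Mthfd1S+/- mice, leaving 1 out assumes that the other varies like the WT mice.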
